A study of Xenopus laevis with 72 samples.

Results

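stra6.L and sdr16c5.L are genes for the first steps by which an embryo turns retinol (vitamin A) into retinoic acid (RA), and they were followed here in embryos of the clawed frog Xenopus laevis, taken whole. They were chosen by name and are 2 of the 23 target genes of a quantitative PCR panel that also held the reference gene gapdh. RA-treated embryos had been exposed to 10 nM all-trans RA, DEAB-treated embryos to 50 uM 4-diethylaminobenzaldehyde (DEAB), an inhibitor of the retinaldehyde dehydrogenases, and control embryos to neither agent. The exposure lasted 2 h, from stage 9.5 (late blastula) to stage 10.25 (early gastrula), and was ended by washing. Embryos were then collected 0, 1.5, 3 and 4.5 h after the wash. Each of the 12 groups held 6 samples, 1 from each of the clutches G to L, which makes 72 samples in all. Per the study's methods, a sample pooled 5 to 10 embryos and all samples of a clutch came from the eggs of 1 female. All embryos of all groups were wild type, the solvent given to controls is not stated in the sources used here, and the panel holds no cell type markers against which the tissue could be checked. In whole embryos, fewer cells of a type and less RNA per cell cannot be told apart.

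Retinol travels bound to retinol-binding protein, and STRA6, known best from mammals, is the cell surface receptor that takes retinol up from this carrier. Inside the cell retinol is oxidized to retinaldehyde by short-chain dehydrogenases, among them Rdh10 and Sdr16c5, the frog enzyme also called Rdhe2. The retinaldehyde dehydrogenases (Aldh1a enzymes) then make RA, Dhrs3 reduces retinaldehyde back to retinol, Crabp2 binds RA in the cell, and the Cyp26 enzymes degrade it. Added RA raises the products that lower RA in many vertebrate tissues, and the gastrula is the stage at which embryonic RA signalling begins. Many X. laevis genes exist as an L and an S copy, 1 per subgenome. The panel measured the L copy of both, stra6.L (gene ID 108711302) and sdr16c5.L (gene ID 444148).

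The threshold cycle (Ct) is the PCR cycle at which a product becomes visible, so that a Ct higher by 1 stands for about 2-fold less template in the reaction. The deposited log2 value is the Ct of gapdh minus that of the gene, centred on the median of the gene over the 72 samples, and below it is called the log2 level. The median Ct was 16.93 for stra6.L, 16.72 for sdr16c5.L and 13.1 for gapdh, in a panel whose Ct ran from 10.04 to 27.41. Both genes had a value in all 72 samples. Ct values carry no count of template molecules, so that the depth is unknown and the error is estimated from the samples of the 6 clutches. Levels of different genes were not compared, since each had its own primers.

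stra6.L and sdr16c5.L held the steadiest log2 levels of the panel. Over the 72 samples the SD of the log2 level was 0.396 for stra6.L and 0.477 for sdr16c5.L, the lowest and second lowest of the 22 target genes without missing values, whose median was 1.77. The 12 group means of stra6.L spanned 0.532 and those of sdr16c5.L 0.777, against a median span of 4.47 and a highest span of 8.78 over the 22 genes. In Ct, with no reference gene, the SD was 0.938 for stra6.L (rank 7 of 22 from the lowest) and 0.793 for sdr16c5.L (rank 4), so that the first places held only relative to gapdh.

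At 0 h the log2 level of stra6.L ran from -0.645 over a median of -0.16 to 0.505 in RA-treated embryos, from -0.425 over -0.095 to 0.495 in DEAB-treated embryos and from -0.735 over -0.295 to 0.395 in controls. At 4.5 h it ran from -0.115 over 0.115 to 0.955 in RA-treated embryos, from -0.375 over 0.155 to 0.355 in DEAB-treated embryos and from -0.415 over 0.195 to 0.555 in controls. All 3 treatments overlapped widely at both times. The highest single value, 0.955, was that of the RA-treated sample of clutch L at 4.5 h. Ordered by mean, the groups of stra6.L ran from -0.27 ± 0.42 in controls at 0 h to 0.26 ± 0.48 in DEAB-treated embryos at 3 h (SD, n = 6). None of the 11 pairs of neighbouring groups in that order differed by as much as their SD, and the widest gap was 0.13. Neighbours in a sorted order lie close by construction, and the SD includes the spread between clutches, so that this is no test of a difference.

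The log2 level of sdr16c5.L at 0 h ran from -0.915 over a median of -0.30 to 0.395 in RA-treated embryos, from -1.135 over -0.13 to 0.175 in DEAB-treated embryos and from -1.045 over -0.285 to 0.105 in controls. The lowest of the 6 samples was clutch I in each of the 3 treatments. At 4.5 h the level ran from -0.615 over 0.485 to 1.095 in RA-treated embryos, from -0.165 over 0.365 to 0.755 in DEAB-treated embryos and from -0.475 over -0.10 to 0.755 in controls. The RA-treated samples of that time had the highest SD of the 12 groups, with clutch K lowest and clutch L highest. The group means ran from -0.34 ± 0.42 in controls at 0 h to 0.44 ± 0.62 in RA-treated embryos at 4.5 h (SD, n = 6). Again none of the 11 neighbouring pairs differed by as much as their SD, with a widest gap of 0.19, which is likewise no test.

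**Figure D1:**
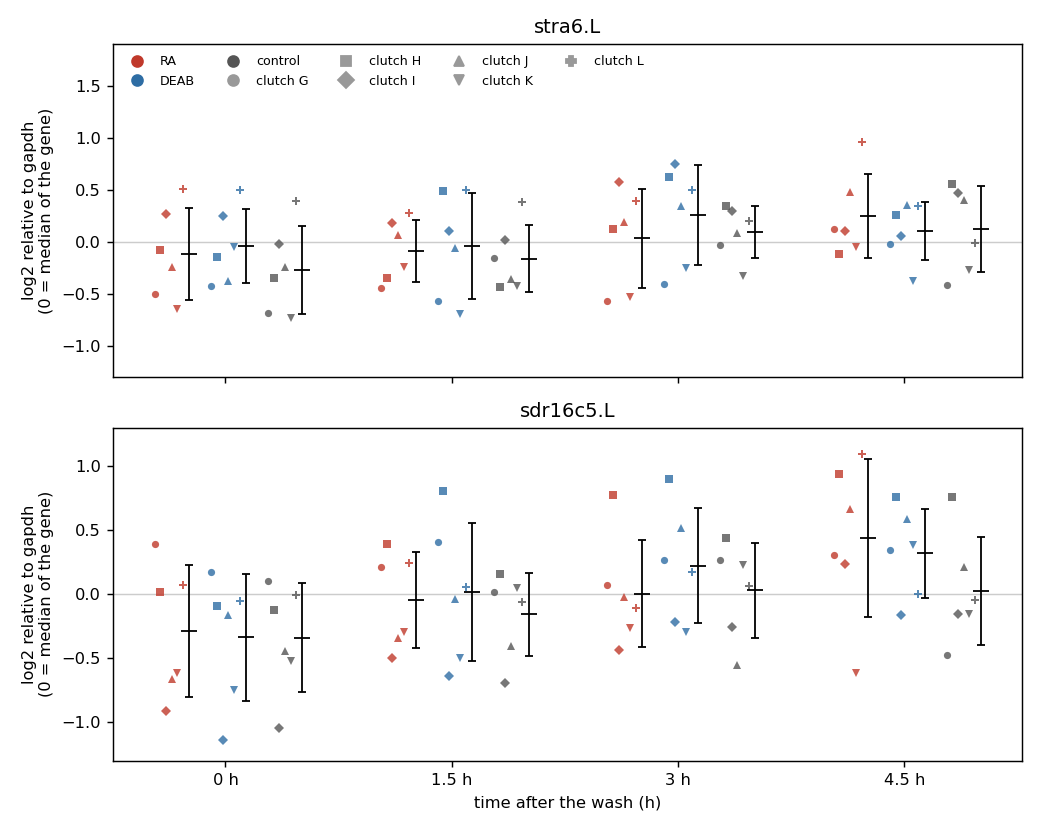
Log2 level of stra6.L (top) and sdr16c5.L (bottom) relative to gapdh, by time after the wash in h, with RA-treated, DEAB-treated and control samples side by side. Marker shapes are the 6 clutches and black bars the group mean ± SD (n = 6); the 3 treatments overlap at every time, and the group means span 0.532 for stra6.L and 0.777 for sdr16c5.L.

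The clutch accounted for more of the variation of both genes than time or treatment did. Of the sum of squares of the log2 level over 72 samples, stra6.L had 54.4% between clutches, 11.4% between times and 1.71% between treatments, and sdr16c5.L had 44.0%, 20.1% and 2.36%. The residual share after group and clutch was 30.1% for stra6.L and 30.8% for sdr16c5.L, more than that of time or of treatment. For dhrs3.L the share between treatments was 21.6%, and for crabp2.L the share between times was 90.1%. The mean of the 12 samples of a clutch lay at -0.34, 0.08, 0.25, 0.05, -0.38 and 0.41 for stra6.L in clutches G to L. It lay at 0.17, 0.48, -0.49, -0.06, -0.28 and 0.12 for sdr16c5.L. The clutches did not fall in the same order, since clutch I was among the higher ones for stra6.L and the lowest for sdr16c5.L.

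The first comparison followed both genes through the recovery period, averaged over the 3 treatments. Relative to gapdh both were higher at 4.5 h than at 0 h. sdr16c5.L averaged 0.26 ± 0.36 at 4.5 h and -0.32 ± 0.46 at 0 h (SD, n = 6 clutches), a change of 0.58 (SE 0.11, limma adjusted p = 1.15e-06), or 1.49-fold. stra6.L averaged 0.16 ± 0.27 at 4.5 h and -0.14 ± 0.39 at 0 h, a change of 0.30 (SE 0.09, limma adjusted p = 0.00145), or 1.23-fold. The background is that 100% of the 23 target genes passed this test, 22 of them higher, with a median change of 3.35. The changes of stra6.L and sdr16c5.L relative to gapdh were the smallest and second smallest in size of the 22 genes with complete values. By clutch, sdr16c5.L changed by -0.17 in clutch G and by 0.35 to 1.0 in the other 5, and stra6.L changed by -0.04 in clutch L and by 0.05 to 0.70 in the other 5. An exact two-sided sign-flip permutation test over the 6 clutches gave p = 0.0625 for each gene, where the smallest possible p is 0.03125. After adjustment over the 22 genes with complete values, 20 passed that test, and stra6.L and sdr16c5.L did not. The fit takes the 3 treatments of a clutch at a time as separate samples. With their mean as 1 value, a setting chosen after seeing the data, the limma adjusted p was 6.78e-04 for sdr16c5.L and 0.0168 for stra6.L.

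The rise of both genes relative to gapdh was a fall in Ct terms. The Ct of stra6.L averaged 16.22, 16.77, 17.18 and 17.32 at 0, 1.5, 3 and 4.5 h, and that of sdr16c5.L 16.15, 16.49, 16.97 and 16.97. The Ct of gapdh averaged 12.39, 12.99, 13.62 and 13.79. All 3 thus needed more cycles at the later times, and gapdh the most. All genes of a sample share its RNA, so that without a reference less RNA put in and less transcript cannot be told apart. Taken as -Ct with no reference gene, the change between 0 and 4.5 h was -1.09 for stra6.L (SE 0.21, limma adjusted p = 2.52e-06) and -0.82 for sdr16c5.L (SE 0.23, limma adjusted p = 8.66e-04), with 87.5% of the 24 genes past the threshold, 15 higher and 6 lower. Each of these falls was seen in 5 of 6 clutches, and the exact sign-flip test over clutches gave p = 0.0625 for stra6.L and 0.156 for sdr16c5.L. Without clutch J the fall of sdr16c5.L was -0.49. The Ct of gapdh was higher at 4.5 h by 1.40 ± 1.25 (SD, n = 6). The exact sign-flip p of this was 0.0625, or 0.188 after adjustment over the 3 tests of gapdh, and 5 of 6 clutches shared the direction.

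**Figure D2:**
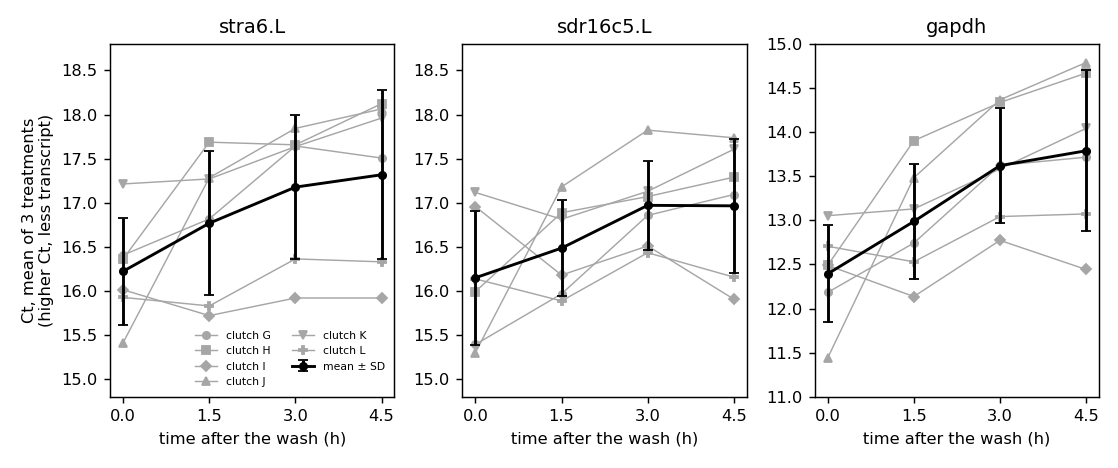
Ct of stra6.L, sdr16c5.L and gapdh against time after the wash in h, as the mean of the 3 treatments of each clutch (grey) and the mean ± SD of 6 clutches (black). A higher Ct means less template in the reaction, which also depends on the RNA put in. The mean Ct at 4.5 h exceeds that at 0 h in all 3 panels, with 17.32 and 16.22 for stra6.L, 16.97 and 16.15 for sdr16c5.L, and 13.79 and 12.39 for gapdh.

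The Ct values of both genes followed gapdh closely from sample to sample. Over the 72 samples the Pearson r of the Ct with that of gapdh was 0.91 for stra6.L and 0.85 for sdr16c5.L, and 0.82 between both genes. These are descriptions, since all genes of a sample share its RNA, reverse transcription and preamplification. In clutch I, where the Ct of gapdh was 12.44 at 4.5 h and 12.49 at 0 h, that of stra6.L was 15.92 at 4.5 h and 16.01 at 0 h. sdr16c5.L did not follow gapdh there, with a Ct of 15.91 at 4.5 h and 16.96 at 0 h. In clutch J, where gapdh stood at 14.79 at 4.5 h and 11.44 at 0 h, stra6.L stood at 18.06 at 4.5 h and 15.41 at 0 h. sdr16c5.L stood at 17.74 at 4.5 h and 15.30 at 0 h in that clutch.

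Setting both genes against the panel mean made the fall larger. The change between 0 and 4.5 h was then -3.23 for stra6.L and -2.94 for sdr16c5.L (limma adjusted p = 7.25e-33 and 9.23e-30). With that mean as reference, 21 of the 23 target genes passed. That mean averages the other target genes with complete values, and 22 of the 23 targets were higher relative to gapdh at 4.5 h. The direction of the time course therefore turned with the reference. A change of reference cannot alter the signed order of the genes by change, so that their place at the low end is no separate result. Their place as the smallest changes in size held relative to gapdh only. As -Ct, for one, the change of rdh10.S was -0.56, smaller in size than that of either gene. Without a reference, 15 of the 22 complete genes had a change above 0 and 7 below, and 1 gene lay below stra6.L and sdr16c5.L.

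**Figure D3:**
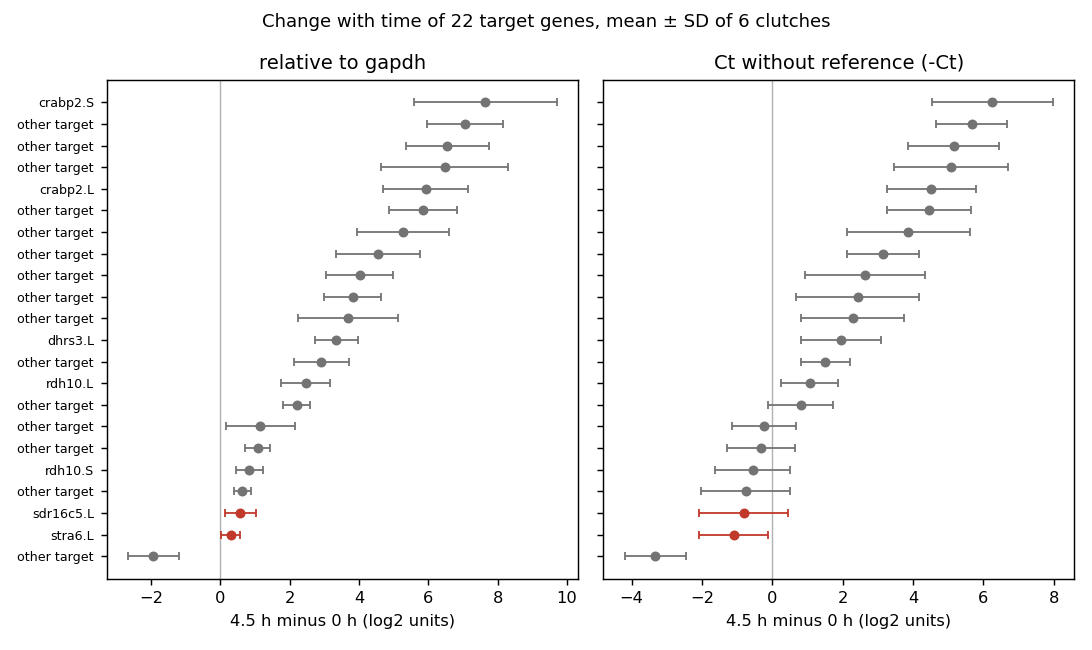
Change between 0 and 4.5 h, averaged over treatments, of the 22 target genes with complete values, in log2 units relative to gapdh (left) and as -Ct without a reference gene (right). Points are the mean and bars the SD of 6 clutches; stra6.L and sdr16c5.L (red) lie at 0.30 and 0.58 on the left and at -1.09 and -0.82 on the right.

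The whole change was then split into its steps, and each gene passed the test in a different one. Between 0 and 1.5 h sdr16c5.L changed by 0.26 (SE 0.11, limma adjusted p = 0.0191) and stra6.L by 0.05 (SE 0.09, adjusted p = 0.588), with 95.7% of the target genes past the threshold. Between 1.5 and 3 h stra6.L changed by 0.22 (SE 0.09, limma adjusted p = 0.0177) and sdr16c5.L by 0.15 (adjusted p = 0.182), where 87% passed. Neither passed between 3 and 4.5 h, at 0.03 for stra6.L (limma adjusted p = 0.753) and 0.17 for sdr16c5.L (adjusted p = 0.149), where 60.9% did. With the 3 treatments averaged within a clutch and time, the calls of both genes ended (adjusted p = 0.0852 for sdr16c5.L and 0.0759 for stra6.L). Taken from Ct, the step of stra6.L minus that of sdr16c5.L was -0.21 ± 0.26 between 0 and 1.5 h (SD, n = 6, exact sign-flip p = 0.188). Between 1.5 and 3 h it was 0.08 ± 0.09 (exact sign-flip p = 0.0938). A difference in timing between the genes was thus not shown.

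Within the treatments, sdr16c5.L was higher at 4.5 h than at 0 h by 0.72 in RA-treated embryos (SE 0.18, limma adjusted p = 2.53e-04) and by 0.66 in DEAB-treated embryos (SE 0.18, adjusted p = 8.14e-04). In controls it differed by 0.36 (95% interval -0.00 to 0.73, limma adjusted p = 0.0569), with clutch G at -0.58, and without clutch G it passed at 0.55 (adjusted p = 0.00735). stra6.L was higher at 4.5 h by 0.37 in RA-treated embryos (SE 0.16, limma adjusted p = 0.0226) and by 0.39 in controls (SE 0.16, adjusted p = 0.0161). In DEAB-treated embryos it differed by 0.14 (95% interval -0.17 to 0.45, adjusted p = 0.36). The share of target genes past the threshold was 95.7% in RA-treated embryos, 95.7% in DEAB-treated embryos and 87% in controls. Both calls of stra6.L ended without the clutch block (adjusted p = 0.150 in RA-treated embryos and 0.134 in controls). Those of sdr16c5.L ended when only the samples compared were fitted (adjusted p = 0.0523 in RA-treated and 0.0574 in DEAB-treated embryos). The exact sign-flip p of sdr16c5.L was 0.125 in RA-treated and 0.03125 in DEAB-treated embryos. Adjusted over 22 genes, that test passed 18 genes in RA-treated embryos, 20 in DEAB-treated embryos and 16 in controls. In Ct terms the change within a treatment ran from -1.26 to -0.90 for stra6.L and from -0.93 to -0.61 for sdr16c5.L.

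The second comparison asked whether added RA moved the genes of uptake and oxidation. Relative to gapdh, neither gene passed the test at any time. The RA-responsive gene dhrs3.L (gene ID 444269) is set beside them. At 0 h stra6.L averaged -0.12 ± 0.44 in RA-treated embryos and -0.27 ± 0.42 in controls (SD, n = 6), a difference of 0.16 (95% interval -0.15 to 0.47, limma adjusted p = 0.561). It was higher with RA in 5 clutches and equal in clutch J, with differences of 0.00 to 0.29 (exact two-sided sign-flip p = 0.0625). sdr16c5.L averaged -0.28 ± 0.52 in RA-treated embryos and -0.34 ± 0.42 in controls, a difference of 0.06 (95% interval -0.31 to 0.42, limma adjusted p = 0.872). In the same samples dhrs3.L averaged -0.64 ± 0.40 with RA and -3.32 ± 0.48 in controls, a rise of 2.68 (SE 0.24, limma adjusted p = 2.07e-14) in 6 of 6 clutches. At this time 26.1% of the target genes passed. They were 3 of the 7 reduction and degradation genes, 2 of the 6 hox targets, homeobox genes that pattern the body axis, and hoxd3.L, a gene in no list. The deposited table names its L copy and the study's methods the S copy, so that which was measured is in doubt. None of the 5 synthesis genes, which include sdr16c5.L, or of the 4 genes of binding and transport, which include stra6.L, passed. Not passing does not show an unmoved gene. The differences ran from -0.74 to 0.06 over the synthesis genes and from -0.13 to 0.73 over those of binding and transport.

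Relative to gapdh, neither gene passed at the later times either. At 1.5 h the difference from control was 0.08 for stra6.L and 0.11 for sdr16c5.L, where 39.1% of the target genes passed, and at 3 h it was -0.06 and -0.03, where 17.4% passed. Of the 8 RA differences of both genes by time, the largest was that of sdr16c5.L at 4.5 h. It averaged 0.44 ± 0.62 in RA-treated embryos and 0.02 ± 0.42 in controls (SD, n = 6), a difference of 0.41 (95% interval 0.05 to 0.78, limma adjusted p = 0.260) at a time when 0% of the target genes passed and 3 had an unadjusted p under 0.05. The difference was -0.46 in clutch K and 0.18 to 1.14 in the other 5, and without clutch K it was 0.59 and passed the test (adjusted p = 0.0385). stra6.L differed by 0.13 at 4.5 h (95% interval -0.18 to 0.44), with clutches from -0.67 to 0.97.

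Averaged over the 4 times, the RA difference was 0.08 for stra6.L (95% interval -0.08 to 0.23, limma adjusted p = 0.482) and 0.14 for sdr16c5.L (95% interval -0.04 to 0.32, adjusted p = 0.241). With 1 clutch left out in turn, that of stra6.L ran from 0.0325 without clutch L to 0.117 without clutch H. For dhrs3.L it was 1.56 (95% interval 1.31 to 1.80). The share of target genes past the threshold was 39.1%, with 5 of 7 reduction and degradation genes and 3 of 6 hox targets higher, and again 0 of 5 and 0 of 4 in the lists of synthesis and of binding and transport. The median difference was 1.36 over the 7 genes of reduction and degradation, -0.01 over the 5 synthesis genes and 0.37 over all 23 target genes. Without clutch K, sdr16c5.L passed at 0.24 (limma adjusted p = 0.0359), with a difference of -0.345 in that clutch and 0.135 to 0.34 in the other 5.

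The direction of the RA difference depended on the reference as well. With the panel mean in place of gapdh, the averaged difference was -0.56 for stra6.L (limma adjusted p = 1.23e-05) and -0.50 for sdr16c5.L (adjusted p = 1.30e-04), both called lower. With that reference 18 of the 23 target genes passed. The panel mean includes 8 of the 9 genes that were higher with RA, all but hoxd3.L. With no reference gene the averaged differences were 0.07 for stra6.L and 0.14 for sdr16c5.L, with 95% intervals of -0.29 to 0.43 and -0.26 to 0.53. The Ct of gapdh differed between RA-treated and control embryos by 0.00 ± 0.35 (SD, n = 6, exact two-sided sign-flip p = 1).

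**Figure D4:**
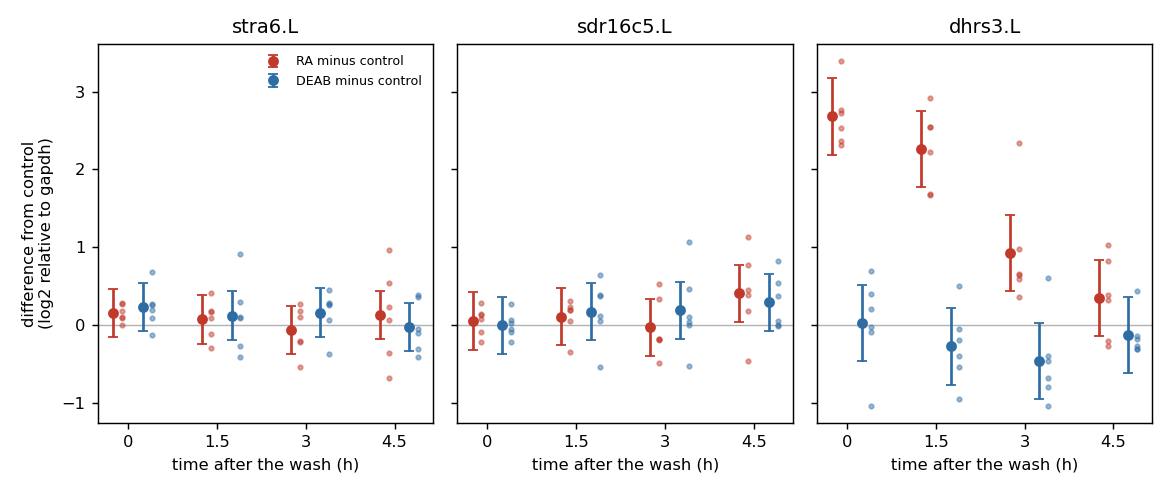
Difference from control in log2 level relative to gapdh, for RA-treated (red) and DEAB-treated (blue) embryos at each time after the wash in h, for stra6.L, sdr16c5.L and, beside them, dhrs3.L. Large points carry the 95% interval of the fit and small points are the 6 clutches; dhrs3.L stands 2.68 above control with RA at 0 h, while stra6.L and sdr16c5.L differ by 0.16 and 0.06.

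The third comparison asked the same of the inhibitor of RA synthesis. Averaged over the 4 times, DEAB-treated embryos differed from controls by 0.12 for stra6.L (95% interval -0.03 to 0.28, limma adjusted p = 0.649) and by 0.17 for sdr16c5.L (95% interval -0.02 to 0.35, adjusted p = 0.649). stra6.L was higher with DEAB in 5 of 6 clutches and sdr16c5.L in 4, with 1 equal. Without clutch J the average of sdr16c5.L was 0.0955. At 0, 1.5, 3 and 4.5 h the differences were 0.23, 0.12, 0.16 and -0.02 for stra6.L and 0.00, 0.18, 0.19 and 0.30 for sdr16c5.L. In limma 0% of the target genes passed at any of the 4 times or in their average. Unadjusted p-values under 0.05 numbered 2 at 0 h, 1 in the average and 0 at the other times. None passed by the exact sign-flip test adjusted over 22 genes. That test cannot pass a gene unless most genes reach its smallest p of 0.03125, so that it decides nothing here. Among the other settings tried, 1 gene passed at 0 h when the clutch K sample with DEAB of that time was left out, and no gene in any other.

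Set directly against each other, RA-treated and DEAB-treated embryos did not differ past the threshold in either gene relative to gapdh. The averaged RA minus DEAB difference was -0.05 for stra6.L (95% interval -0.21 to 0.11) and -0.03 for sdr16c5.L (95% interval -0.21 to 0.16), where 52.2% of the target genes passed. By time, 43.5%, 43.5%, 30.4% and 0% of the target genes passed at 0, 1.5, 3 and 4.5 h, and stra6.L differed by -0.08, -0.05, -0.22 and 0.15 and sdr16c5.L by 0.05, -0.06, -0.22 and 0.12. At 3 h stra6.L was lower with RA in all 6 clutches (p = 0.03125 by the exact sign-flip test, the smallest possible, and limma adjusted p = 0.390), by 0.10 to 0.50, and sdr16c5.L in 5 of 6. With the panel mean as reference both genes were called lower with RA, with an average difference of -0.73 for stra6.L (limma adjusted p = 4.76e-08) and -0.71 for sdr16c5.L (adjusted p = 2.07e-07), and also at 0, 1.5 and 3 h. With that reference 19 of the 23 target genes passed on average, and 17, 15 and 12 at 0, 1.5 and 3 h. Relative to gapdh, 11 target genes were called higher with RA in the averaged comparison. The panel mean includes those of them with complete values. The RA and DEAB differences from control share the control samples, and this comparison does not use them.

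A change of the difference from control with time was not detected for either gene. The limma F test over the 3 later times against 0 h gave an adjusted p of 0.957 for stra6.L and 0.632 for sdr16c5.L with RA, where 21.7% of the target genes passed, and of 0.966 for both genes with DEAB, where 0% passed. The RA difference of dhrs3.L passed (adjusted p = 1.05e-07), with 2.68, 2.27, 0.93 and 0.35 at 0, 1.5, 3 and 4.5 h.

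Differences between genes, taken from Ct within each clutch, use no reference at all. The first pair was stra6.L and sdr16c5.L. The change of stra6.L between 0 and 4.5 h minus that of sdr16c5.L was -0.28 ± 0.51 (SD, n = 6, p = 0.25 by the exact sign-flip test), with 5 of 6 clutches below 0, and the RA difference at 0 h was 0.10 ± 0.12 greater for stra6.L (p = 0.0938 by the exact test). Against rdh10, the gene of the other retinol-oxidizing enzyme of the panel, sdr16c5.L was compared with both duplicates. Its change between 0 and 4.5 h minus that of rdh10.L (gene ID 446860) was -1.88 ± 0.53, below 0 in 6 of 6 clutches (exact p = 0.03125), while the change minus that of rdh10.S (gene ID 431995) was -0.26 ± 0.37 (exact p = 0.156). With RA at 0 h the difference of sdr16c5.L from control exceeded that of rdh10.L by 0.64 ± 0.46, in 5 of 6 clutches (exact p = 0.0625), and that of rdh10.S by 0.80 ± 1.21, with 3.14 in clutch G and -0.26 to 0.79 in the other 5. Relative to gapdh, sdr16c5.L differed from control by 0.06 at that time. There rdh10.L differed by -0.585 (limma adjusted p = 0.153) and rdh10.S by -0.74 (adjusted p = 0.0919). Averaged over the 4 times, the difference of sdr16c5.L exceeded that of rdh10.L by 0.14 ± 0.22, in 4 of 6 clutches (exact p = 0.219), and that of rdh10.S by 0.18 ± 0.35 (exact p = 0.281).

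stra6.L was set beside the RA-binding protein genes crabp2.L (gene ID 378522) and crabp2.S (gene ID 108700362), the other end of the transport list. Its change between 0 and 4.5 h was -5.62 ± 1.16 relative to that of crabp2.L and -7.35 ± 1.96 relative to that of crabp2.S (SD, n = 6), below 0 in 6 of 6 clutches each (exact p = 0.03125). As -Ct, stra6.L itself changed by -1.09, crabp2.L by 4.52 and crabp2.S by 6.255. After adjustment over the 15 tests of this family none passed, since the smallest adjusted p was 0.156 and 6 clutches cannot give an exact p under 0.03125.

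Patterns most like those of both genes were sought among 13 other retinoid enzyme and binding genes, as Pearson r over the 12 group means. For sdr16c5.L they were rdh14.L, an enzyme gene of the list of reduction and degradation (r = 0.91), crabp2.L (0.90) and aldh1a2.L, the gene of the main embryonic RA-making enzyme (0.89). For stra6.L they were crabp2.S (0.86), aldh1a3.L, another RA-making enzyme (0.86), and aldh1a2.L (0.84). All group means hold the same gapdh values and the same times. On -Ct, r with sdr16c5.L was 0.86 for rdh14.L, -0.87 for crabp2.L and -0.66 for aldh1a2.L, and with stra6.L it was -0.89, -0.91 and -0.72 for crabp2.S, aldh1a3.L and aldh1a2.L. Between stra6.L and sdr16c5.L themselves r was 0.85 relative to gapdh and 0.96 on -Ct. After removal of group and clutch, r over the 72 samples, relative to gapdh, was 0.26 between both genes and 0.53 between sdr16c5.L and rdh14.L. On Ct, the r between both genes after that removal was 0.87. Of these 5 genes, rdh14.L kept the sign of its likeness on -Ct. With the panel mean as reference, r with sdr16c5.L was 0.99 for rdh14.L, 0.87 for aldh1a2.L and -0.86 for crabp2.L. With stra6.L it was 0.86 for aldh1a2.L, -0.37 for aldh1a3.L and -0.85 for crabp2.S. Between stra6.L and sdr16c5.L it was 0.996. The panel mean itself moved with time and enters all these values, so that they carry its course and are no separate measure of likeness. The ranking itself holds relative to gapdh only. There rdh13.L, also of the list of reduction and degradation, came last (r = -0.78 with sdr16c5.L and -0.66 with stra6.L). On -Ct it had the highest r of the 13 genes (0.93 and 0.97), and with the panel mean r was 0.97 and 0.98.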

How the data were processed

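The authors deposited a table of Ct values, whose unit is handled here as a score, and a table of log2 relative expression. Per the methods, cDNA was preamplified in 3 sets (primers for L copies, for S copies, for all genes), read with EvaGreen dye on microfluidic arrays, and the median Ct kept, so that L and S copies are told apart only as far as the primers allow. Unequal amplification efficiency or a moving gapdh alters the values. All 1637 deposited log2 values of target genes equalled gapdh Ct minus gene Ct minus the gene's median within 0.001. The 24 gene IDs matched RefSeq (Xenopus_laevis_v10.1), used for names only. The 19 missing values were those of hoxd3.L. No sample pair was identical.

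limma (version 3.58.1, R 4.3.3; lmFit and eBayes) fitted 12 groups with clutch as a fixed block, and p-values were adjusted by Benjamini-Hochberg over the 23 target genes of a contrast (24 genes for Ct), at a threshold of 0.05. Clutch letters pair samples of 1 female, and deviations correlated by a mean of 0.36 within and -0.08 between clutches. Exact sign-flip tests had 64 assignments. An exact p-value is the share of these assignments whose mean over the 6 clutches lies at least as far from 0 as that observed. The p-values of limma rest on the residual spread of the 72 samples after group and clutch, moderated over genes. For the change of sdr16c5.L between 0 and 4.5 h, the SE was 0.11 in limma and 0.18 over clutches. The fit was run on simulated data with independent errors and a change only in RA-treated samples at 0 h. That run does not cover the time comparisons or errors shared within a clutch and time. Alternatives were other blocks, references, adjustments, sample sets and tests, and each clutch left out. stra6.L and sdr16c5.L are named throughout. The other named genes are the 3 most like each, rdh10 and crabp2 for comparison, and dhrs3.L as a responsive gene. hoxd3.L, with missing values and in no list, was named after its values were seen, and so was rdh13.L. All were chosen with earlier results of these data known. Panel lists were synthesis (rdh10.L, rdh10.S, sdr16c5.L, aldh1a2.L, aldh1a3.L), reduction and degradation, binding and transport, and hox targets. Some genes enter the fits and counts and are not reported singly. Plots were drawn with matplotlib 3.10.9.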

Additional observations from a re-analysis of the deposited data

Results flagged for a closer look

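Of 86 sets of 6 clutch values tested, 7 held 1 clutch whose gap to the nearest other was past Dixon's 95% limit as a share of the range. Chance flags about 1 in 20 such sets, and the comparisons share samples. The averaged RA minus control difference of sdr16c5.L was -0.345 in clutch K and 0.135 to 0.34 in the other 5. RA minus DEAB at 0 h was -0.6 for stra6.L in clutch K and -0.08 to 0.13 in the others, and -0.5 for sdr16c5.L in clutch J and 0.11 to 0.22 in the others. In clutch K, the DEAB-treated 0 h sample had the highest root mean square residual of the panel, 1.70. Averaged over times, RA minus DEAB of stra6.L was -0.4075 in clutch H and -0.02 to 0.08 in the others. The RA difference of sdr16c5.L at 0 h exceeded that of rdh10.S by 3.14 in clutch G and by -0.26 to 0.79 in the others. The averaged RA difference of stra6.L minus that of crabp2.L was 0.445 in clutch L and -0.66 to -0.25 in the others, and minus that of crabp2.S it was -1.1875 in clutch G and -0.06 to 0.46 in the others.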

How the results depend on the processing

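Of 56 results from a limma fit, 15 kept their direction and their side of the threshold under the alternatives run for them. The 18 differences between genes and of gapdh Ct were recomputed with each clutch left out only, and none moved by more than its SD over clutches, but 3 turned in sign. The RA difference at 0 h of stra6.L minus that of crabp2.S ran over -0.572 to 0.048, the averaged one over -0.0955 to 0.234, and the averaged RA difference of gapdh Ct over -0.118 to 0.073. Robust variance moderation, a random replicate block, a block of clutch by time, adjustment over the whole family, and leaving out hoxd3.L or the weakly expressed genes (17 genes kept) changed no call or direction. The replicate block by clutch mattered: with no replicate block the adjusted p of stra6.L was lost at 0.37 in RA-treated embryos and 0.39 in controls (4.5 h minus 0 h) and at 0.22 for 3 h minus 1.5 h, that of sdr16c5.L at 0.26 for 1.5 h minus 0 h, and in -Ct those of sdr16c5.L at -0.90 in RA-treated embryos and -0.93 in controls and of stra6.L at -0.90 in controls.

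The exact sign-flip test, which cannot go below 0.03125, passed neither the whole time change (0.58 for sdr16c5.L, 0.30 for stra6.L) nor the steps of 0.26 and 0.22, nor 0.72 for sdr16c5.L and 0.37 for stra6.L in RA-treated embryos and 0.39 for stra6.L in controls. Of 22 genes, that test passed 20 for the whole change, 18 in RA-treated embryos and 16 in controls. For the steps it passed 0 between 0 and 1.5 h and 17 between 1.5 and 3 h. Averaging treatments, chosen after seeing the data, lost the steps of 0.26 and 0.22. Fitting only the samples compared lost 0.72, 0.37, 0.39 and, for sdr16c5.L in DEAB-treated embryos, 0.655.

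The reference turned the most directions, 25 with the panel mean and 19 without a reference, of 48 results each. Relative to the panel mean, RA minus control of sdr16c5.L was -0.59, -0.88 and -0.0606 at 0, 1.5 and 4.5 h and -0.50 on average, and of stra6.L -0.48, -0.92 and -0.36 and -0.56 on average. Those of sdr16c5.L passed the threshold at 0 and 1.5 h and on average, and those of stra6.L at 1.5 h and on average. RA minus DEAB by time was -0.69, -1.04, -0.78 and -0.34 for sdr16c5.L (average -0.71) and -0.825, -1.03, -0.78 and -0.31 for stra6.L (average -0.73), lower and past the threshold at 0, 1.5 and 3 h and on average. Of the 23 target genes, 17, 15 and 12 passed at those times and 19 on average. Time changes were -2.64, -3.00 and -3.17 for sdr16c5.L in RA-treated, DEAB-treated and control embryos (steps -1.04, -1.14 and -0.76, whole -2.94) and -3.01, -3.53 and -3.14 for stra6.L (steps -1.26, -1.06 and -0.91, whole -3.23). Without a reference they were -0.90, -0.61 and -0.93 for sdr16c5.L (early steps -0.34 and -0.485, whole -0.82) and -1.26, -1.12 and -0.90 for stra6.L (steps -0.545, -0.41 and -0.14, whole -1.09). Without a reference, RA minus control turned to -0.0317 at 1.5 h and -0.00667 at 4.5 h for stra6.L and to 0.0117 at 3 h for sdr16c5.L, DEAB minus control of stra6.L to 0.165 at 4.5 h, and RA minus DEAB at 4.5 h to -0.20 for sdr16c5.L and -0.17 for stra6.L. Leaving out the DEAB-treated 0 h sample of clutch K turned RA minus DEAB of stra6.L at 0 h to 0.0103.

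Leaving out 1 clutch in turn gave these ranges. RA minus control ran over -0.138 to 0.066 (sdr16c5.L, 3 h), -0.13 to 0.032 (stra6.L, 3 h), 0.268 to 0.588 (sdr16c5.L, 4.5 h, called without clutch K), -0.038 to 0.29 (stra6.L, 4.5 h) 0.098 to 0.235 (sdr16c5.L, average, called without K) and 0.0325 to 0.117 (stra6.L, average). DEAB minus control ran over -0.052 to 0.048 (sdr16c5.L, 0 h), -0.036 to 0.23 (stra6.L, 1.5 h), 0.0955 to 0.237 (sdr16c5.L, average) and -0.10 to 0.06 (stra6.L, 4.5 h). RA minus DEAB ran over -0.12 to 0.03 (stra6.L, 0 h), -0.12 to 0.006 (sdr16c5.L, 1.5 h), -0.15 to 0.11 (stra6.L, 1.5 h), -0.076 to 0.34 (sdr16c5.L, 4.5 h), -0.0905 to 0.0295 (sdr16c5.L, average) and -0.0745 to 0.022 (stra6.L, average). The change between 0 and 4.5 h ran over 0.296 to 0.47 for stra6.L in RA-treated embryos (lost without G, J or K), 0.29 to 0.55 for stra6.L in controls (lost without H or J) and 0.26 to 0.55 for sdr16c5.L in controls (called without G or L). Steps ran over 0.205 to 0.31 (sdr16c5.L, 1.5 h minus 0 h, lost without H or I), 0.18 to 0.27 (stra6.L, 3 h minus 1.5 h, lost without H, I or J) and -0.012 to 0.10 (stra6.L, 4.5 h minus 3 h). In -Ct, 4.5 h minus 0 h ran over -1.38 to -0.55 and -1.146 to -0.63 for sdr16c5.L in RA-treated embryos and controls (lost without G, H or J), -1.04 to -0.27 in DEAB-treated embryos (called without I) and -1.03 to -0.60 for stra6.L in controls (lost without H or J).

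Counts of target genes called also moved. RA minus control passed 6, 9, 4 and 0 genes by time and 9 on average. With the panel mean it passed 12, 15, 1 and 0 by time and 18 on average. By the exact test, adjusted over 22 genes, the count was 0 in each. There a gene cannot pass unless most genes reach the smallest p of 0.03125, so that these counts of 0 decide nothing. Before adjustment, the exact p of dhrs3.L was 0.03125 at 0, 1.5 and 3 h and on average, and 0.188 at 4.5 h.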
